A study of Homo sapiens with 6 samples.

Results

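Kinesins and cytoplasmic dynein are the motors that walk along microtubules, and 63 of the 18969 genes in the deposited table encode their subunits. They were taken by symbol from the 13678 protein-coding genes of the table: 36 kinesin heavy chains (KIF), 4 kinesin light chains (KLC), 9 dynein chains (DYNC), 8 dynein light chains (DYNL) and 6 dynactin subunits (DCTN). RNA was sequenced from HK-2, an immortalised line of human proximal tubule epithelium, grown in DME/F-12 medium. All 6 libraries came from cells given 20 µM cisplatin, a platinum drug that crosslinks DNA, so no library without the drug enters any comparison here. The cells of 3 libraries are labelled WT and serve as controls, and the other 3 are labelled as overexpressing Nfe2l1, a transcription factor of the CNC family that also goes by the name Nrf1. The labels give neither the vector, the clone, nor the length of the cisplatin treatment, and do not say that the libraries of a group came from separate cultures, so a p-value here may rest on technical spread alone.

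Most kinesins move cargo towards the plus ends of microtubules, at the cell periphery, whereas cytoplasmic dynein carries cargo towards the minus ends, near the centrosome. Dynein needs its cofactor dynactin and an adaptor to move over long distances, and a second dynein runs inside cilia. A further set of kinesins builds the mitotic spindle, aligns the chromosomes and separates the daughter cells, and the primary cilium of the kidney tubule is built by kinesin-2 and dynein-2.

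NFE2L1, the gene named in the labels, had 234, 253 and 246 CPM (counts brought to a common library size, after TMM scaling) in controls 1 to 3 and 245, 744 and 339.5 CPM in libraries 1 to 3 labelled overexpression. Library 1 labelled overexpression lay inside the control range, and the group difference did not pass (log2 fold change 0.86 ± 0.35, edgeR adjusted p = 0.115), so the libraries are called by their labels throughout. Without that library the log2 fold change was 1.14 (edgeR adjusted p = 0.0286), and without library 2, the highest, it was 0.25 (edgeR adjusted p = 0.265). Library totals ran from 16865460 to 23458333 counts. Of 11 proximal tubule markers, 6 were analysed and 2 were tested, with a summed level of 4.18 to 4.77 FPKM (counts scaled by gene length and library total) in controls and 1.39 to 2.10 FPKM in the libraries labelled overexpression; SLC34A1, SLC5A2, ALPL and AQP1 were at or near 0, at up to 0.515 CPM, and LRP2, CUBN, SLC22A6, SLC22A8 and ANPEP were not analysed here. Epithelial keratins were abundant, and the summed level of the 5 epithelial markers analysed, of 6, ran from 858 to 937 FPKM in controls and from 1110 to 1424 FPKM in the other group. Fibroblast markers summed to 15.0 to 18.3 FPKM in controls and 5.64 to 7.26 FPKM otherwise, from 4 of 6 markers. Of the leukocyte markers only LYZ, 1 of 5, was analysed, at 0.0933 to 0.24 FPKM, and the 4 endothelial markers were not analysed here. Summed over all genes, FPKM ran from 484861 to 519524 in controls and from 605615 to 626091 in the other group, and the marker sums were not brought to a common total. The part of these marker differences in the results below was not tested.

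Of the 63 motor genes, 62 passed the filter on low counts and were tested. The remaining gene, DYNLT4, a Tctex-type dynein light chain, ran from 0.0861 to 0.237 CPM in controls and from 0.247 to 0.702 CPM in the libraries labelled overexpression. In edgeR's quasi-likelihood test at an adjusted p of 0.05, 6 motor genes rose (9.68% of those tested), beside 9.62% of all 15046 genes. In the same test 11 motor genes fell (17.7%), beside 9.49% of all genes, and 45 did not pass. The genes that rose were KLC3, DYNLRB1, DYNC2I2, DCTN3, KIF22 and DYNLT1, and 9 of the 11 that fell were kinesin heavy chains. In each of the 17, all 3 libraries labelled overexpression lay on one side of all 3 controls. Groups that do not overlap were not rare: 12 tested motor genes (19.4%) had every library labelled overexpression above every control, beside 21.8% of all genes, and 15 (24.2%) had every one below, beside 20.9%.

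**Figure D1:**
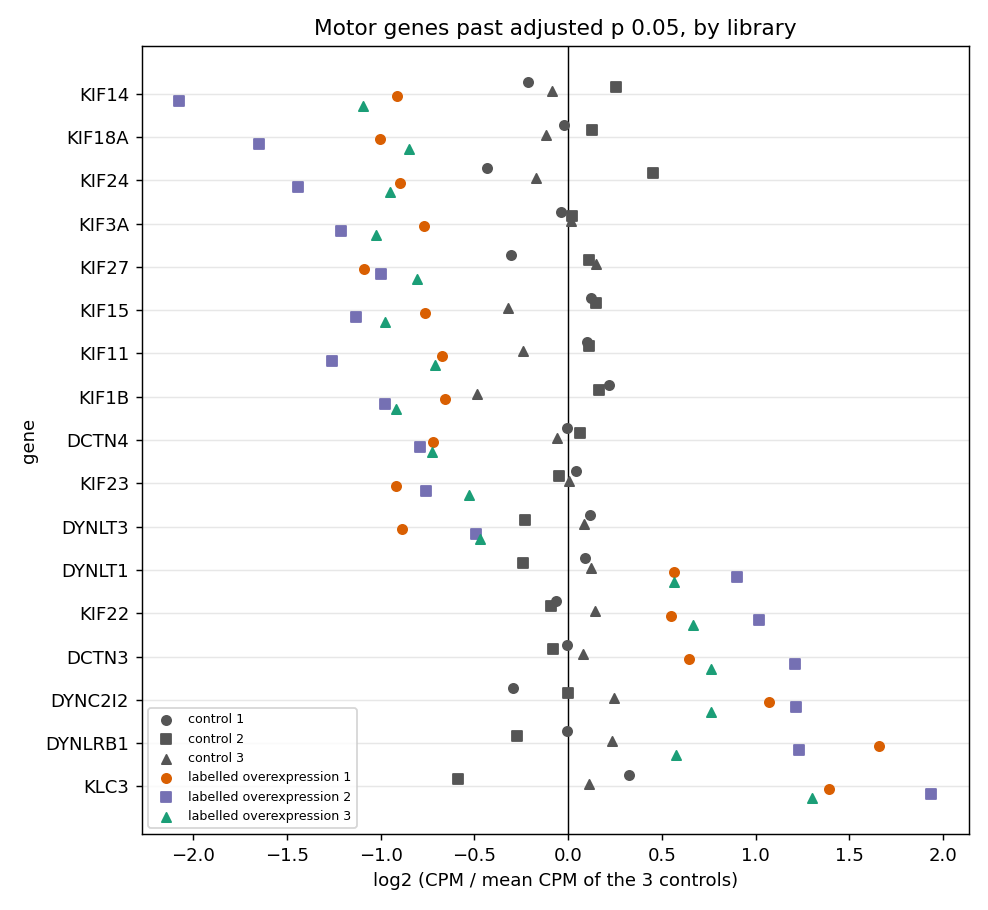
The 17 motor genes that passed the test, 1 gene a line, with each library's log2 ratio of CPM to the mean of the 3 controls on the x axis. For the 6 genes that rose, KLC3 to DYNLT1, all points labelled overexpression lie right of the controls, and for the 11 that fell they lie left.

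The calls rest on few libraries and on how gene length and base composition are treated. Without control 1, edgeR called 0 of the 62 motor genes and 0.00643% of all genes. At an unadjusted p under 0.05 there were 22 motor genes, beside 3962 of all 15542 genes in that fit. Without control 2 it called 0 motor genes and 0.0% of all genes, with 23 motor genes at an unadjusted p under 0.05, beside 3863 of all 15568. Without control 3 edgeR called 9 (8.89% of all genes). Without library 3 labelled overexpression it called 8 (10.1% of all genes), without library 1 of that label 17 (16.7%) and without library 2 of that label 23 (23.7%). When each library's smooth trend over gene length and GC content was taken out by an offset, edgeR called 0 motor genes and 0.691% of all genes. The smallest adjusted p of a motor gene was 0.0801, for KIF18A. At an unadjusted p under 0.05 this fit had 15 motor genes, beside 2945 of all 15046 genes. An offset for length alone kept 5 motor genes (8.06%, beside 6.75% of all genes): DYNC2I2 and KLC3 as higher, DYNLT3, KIF14 and KIF18A as lower. All 17 kept their direction under each of the 17 alternative settings. They were picked as called in the main fit, and their groups do not overlap. In refits of the same libraries their direction could thus hardly reverse.

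The 12 mitotic kinesins were the role class with the most genes that fell. They included 5 genes that fell and 1 that rose, where 9.49% of all genes fell and 9.62% rose. These shares of all genes also stand beside the counts of the other role classes and of the lists below. At an unadjusted p under 0.05, 2753 of all 15046 genes were higher and 2638 lower in edgeR. DESeq2 raised 1764 and lowered 2099 of them. In the mitotic class 6 genes were lower and 1 higher at that unadjusted p, and DESeq2 lowered 6 and raised 1. In the mitotic class 11 of the 12 had a negative log2 fold change, as had 7264 of all 15046 genes. The median log2 fold change of the mitotic class was -0.59, beside -0.14 over the 62 motor genes tested and 0.03 over all genes. With the length and GC offset it was -0.34, with 10 of 12 negative. In a bulk sample, fewer dividing cells and less of these RNAs in each cell cannot be told apart.

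KIF18A (chr11:28020619-28108156, minus strand, GRCh38 as in the deposited table), a kinesin-8 that shortens spindle microtubules and damps chromosome movements at the metaphase plate, had 42.2, 46.9 and 39.6 CPM in the controls. In the libraries labelled overexpression it had 21.4, 13.7 and 23.9 CPM. All 3 lay well below the lowest control, and the log2 fold change was -1.13 ± 0.23 (SE, n = 3 and 3; edgeR adjusted p = 0.0165). KIF14 (chr1:200551497-200620751, minus strand), which brings citron kinase to the cleavage furrow, fell most of the class, from 44.7, 61.9 and 48.8 CPM to 27.6, 12.3 and 24.3 CPM. Its log2 fold change was -1.28 ± 0.30 (edgeR adjusted p = 0.022), and library 2 labelled overexpression was the lowest. KIF23 (chr15:69414246-69448427, plus strand), the motor of the centralspindlin complex at the midbody, was the most abundant of the genes of this class that fell, at 32.9 FPKM on average. It had 152, 143 and 149 CPM in controls and 78.4, 87.7 and 103 CPM in the other group, with a narrow spread in controls and a mean change of -0.73 ± 0.16 on the log2 scale (edgeR adjusted p = 0.0182).

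KIF11 and KIF15 push the spindle poles apart, KIF11 as a tetramer that slides antiparallel microtubules and KIF15 as a motor that can partly stand in for it. KIF11 (chr10:92574105-92655395, plus strand) had 144, 145 and 113 CPM in controls and 84.1, 55.9 and 82.0 CPM in the libraries labelled overexpression (log2 fold change -0.86 ± 0.20, edgeR adjusted p = 0.0227). KIF15 (chr3:44761721-44873376, plus strand) had 37.4, 38.1 and 27.5 CPM and 20.2, 15.7 and 17.4 CPM (log2 fold change -0.95 ± 0.21, edgeR adjusted p = 0.0187). Both fell, and in both every library labelled overexpression lay below every control; KIF15 overlaps TMEM42 on its own strand, and reads in the shared stretch cannot be assigned with certainty. Without library 3 labelled overexpression, edgeR did not call KIF11, KIF14, KIF15 or KIF22, and without control 3 it did not call KIF14 or KIF23.

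KIF22 (chr16:29790719-29805384, plus strand), a chromokinesin that binds DNA and pushes chromosome arms towards the spindle equator, went the other way. It had 63.0, 62 and 72.9 CPM in the controls and 96.6, 134 and 105 CPM in the libraries labelled overexpression, which is 0.76 ± 0.18 on the log2 scale (edgeR adjusted p = 0.0222). At 2.08 kb and 58.9% GC it was also the shortest gene of the class, whose median was 3.88 kb and 44.3% GC. The other 6 mitotic kinesins did not pass in edgeR, with log2 fold changes from -0.67 for KIF4A, a chromokinesin of the central spindle, to -0.12 for KIF2C. In KIF4A every library labelled overexpression lay below every control (edgeR adjusted p = 0.0868), and DESeq2 lowered it. KIF2C, which takes microtubules apart at centromeres, was the most abundant of the class at 62.3 FPKM. It had 194, 192 and 172 CPM in controls and 131, 232 and 150.1 CPM in the libraries labelled overexpression, which lay on both sides of the controls (95% interval of the log2 fold change -0.61 to 0.37).

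The promoters of the mitotic kinesins were searched for elements known from cell cycle genes, in the 250 bases before the RefSeq start (GRCh38.p14), on both strands. The CHR element, TTTGAA, is a binding site of the DREAM and MuvB complexes that time cell cycle genes, and the CCAAT box, CCAAT, binds NF-Y. CHR letters stood in 5 of the 12 mitotic kinesin promoters (41.7%), in 7 of the 51 motor genes with a promoter in the RefSeq table (13.7%) and in 11% of all 22197 protein-coding promoters. CCAAT letters stood in 10 of the 12 (83.3%), in 41.2% of the 51 and in 32.7% of all. Of the 5 mitotic kinesins that fell, 4 held the CHR letters: KIF11, KIF15, KIF18A and KIF23. KIF14, which fell most of the class, did not hold them. KIF4A and KIF5B held them and did not pass in edgeR, though DESeq2 lowered both and in both every library labelled overexpression lay below every control. DYNC2I2 held them and rose. A link between these letters and the direction of change was not tested. The core of the antioxidant response element, TGACNNNGC, to which CNC factors bind with small MAF proteins, stood in 2 of the 51 (3.92%), KIF23 and KLC1, in 0 of the 6 genes that rose, and in 11.2% of all promoters. Such matches are letters in a window and do not show binding.

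The sequences below are the promoters of the 4 genes that fell and hold the CHR letters, and of KIF22, the mitotic kinesin that rose. KIF22 lacks the exact letters TTTGAA on either strand, but variants of the CHR were not searched. They run 5′ to 3′ on the gene's own strand and end at the base before the RefSeq start; capitals mark CHR letters (TTTGAA, or TTCAAA where the match is on the other strand), the CCAAT box (CCAAT or ATTGG) and, in KIF23, the antioxidant element core on the other strand (GCGAAGTCA).
KIF18A, chr11:28108157-28108406, minus strand: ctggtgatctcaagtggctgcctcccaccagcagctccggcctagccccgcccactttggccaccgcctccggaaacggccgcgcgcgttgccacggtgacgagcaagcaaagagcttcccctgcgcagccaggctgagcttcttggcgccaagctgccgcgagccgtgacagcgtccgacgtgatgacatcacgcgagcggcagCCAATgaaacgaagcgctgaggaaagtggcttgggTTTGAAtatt
KIF23, chr15:69414099-69414348, plus strand: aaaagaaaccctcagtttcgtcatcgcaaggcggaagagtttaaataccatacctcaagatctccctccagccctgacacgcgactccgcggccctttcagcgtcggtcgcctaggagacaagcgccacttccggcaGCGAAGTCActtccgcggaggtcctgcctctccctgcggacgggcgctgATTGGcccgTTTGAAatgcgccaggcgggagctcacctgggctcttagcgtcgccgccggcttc
KIF11, chr10:92592880-92593129, plus strand: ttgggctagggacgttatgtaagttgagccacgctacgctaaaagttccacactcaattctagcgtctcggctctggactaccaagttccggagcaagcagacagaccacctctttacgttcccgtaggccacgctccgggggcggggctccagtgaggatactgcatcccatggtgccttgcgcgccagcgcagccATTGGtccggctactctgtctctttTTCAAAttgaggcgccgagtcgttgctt
KIF15, chr3:44761544-44761793, plus strand: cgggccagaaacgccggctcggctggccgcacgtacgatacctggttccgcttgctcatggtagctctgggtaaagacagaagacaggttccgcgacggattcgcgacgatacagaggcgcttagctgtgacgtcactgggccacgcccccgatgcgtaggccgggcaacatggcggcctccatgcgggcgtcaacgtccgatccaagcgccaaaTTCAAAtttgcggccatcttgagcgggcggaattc
KIF22, chr16:29790501-29790750, plus strand: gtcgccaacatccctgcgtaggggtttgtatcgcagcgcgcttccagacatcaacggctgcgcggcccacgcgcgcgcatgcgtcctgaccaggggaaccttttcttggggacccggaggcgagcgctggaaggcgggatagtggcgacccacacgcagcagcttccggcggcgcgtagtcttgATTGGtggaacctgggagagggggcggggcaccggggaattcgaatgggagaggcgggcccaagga

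In KIF18A the CHR letters lie 10 to 5 bases before the start, with a CCAAT box at 45 to 41 bases. In KIF11 they lie at 28 to 23 bases, on the other strand, with the CCAAT box at 53 to 49. KIF23 holds the CCAAT box at 64 to 60 and the CHR letters at 55 to 50, so that 4 bases separate them, and KIF15 holds CHR letters at 35 to 30 and no CCAAT box. KIF22 has a CCAAT box at 66 to 62 bases and no exact TTTGAA in this window, where variants of the CHR were not searched. In the deposited table the spans of KIF11, KIF15, KIF22 and KIF23 begin upstream of the RefSeq start, so these windows lie partly or wholly inside them.

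Of 21 tested mitosis genes that are not kinesins, 8 fell and 2 rose, where 9.49% of all genes fell and 9.62% rose, with a median log2 fold change of -0.44 and, with the length and GC offset, -0.24 and 1 that fell. ANLN, which links actin to the cleavage furrow, had 416, 404 and 321 CPM in controls and 115, 112 and 154 CPM in the libraries labelled overexpression (log2 fold change -1.58 ± 0.18, edgeR adjusted p = 0.0105); it was the 1 gene that still passed with the offset (log2 fold change -1.02, adjusted p = 0.0404). BUB1B, a kinase of the spindle checkpoint, went from 57.8, 59.1 and 39.4 CPM to 18.7, 21.2 and 21.7 CPM (log2 fold change -1.34 ± 0.21, edgeR adjusted p = 0.0109). The 2 that rose were AURKB, the kinase of the chromosomal passenger complex, and CDC20, an activator of the anaphase-promoting complex, with log2 fold changes of 0.52 and 0.61. CENPE, a kinetochore motor of the kinesin-7 family whose symbol lies outside the rule, fell as well (log2 fold change -0.93 ± 0.21, edgeR adjusted p = 0.0197), while the other such motor tested, STARD9, had -0.84 ± 0.28 and did not pass (edgeR adjusted p = 0.0636).

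**Figure D2:**
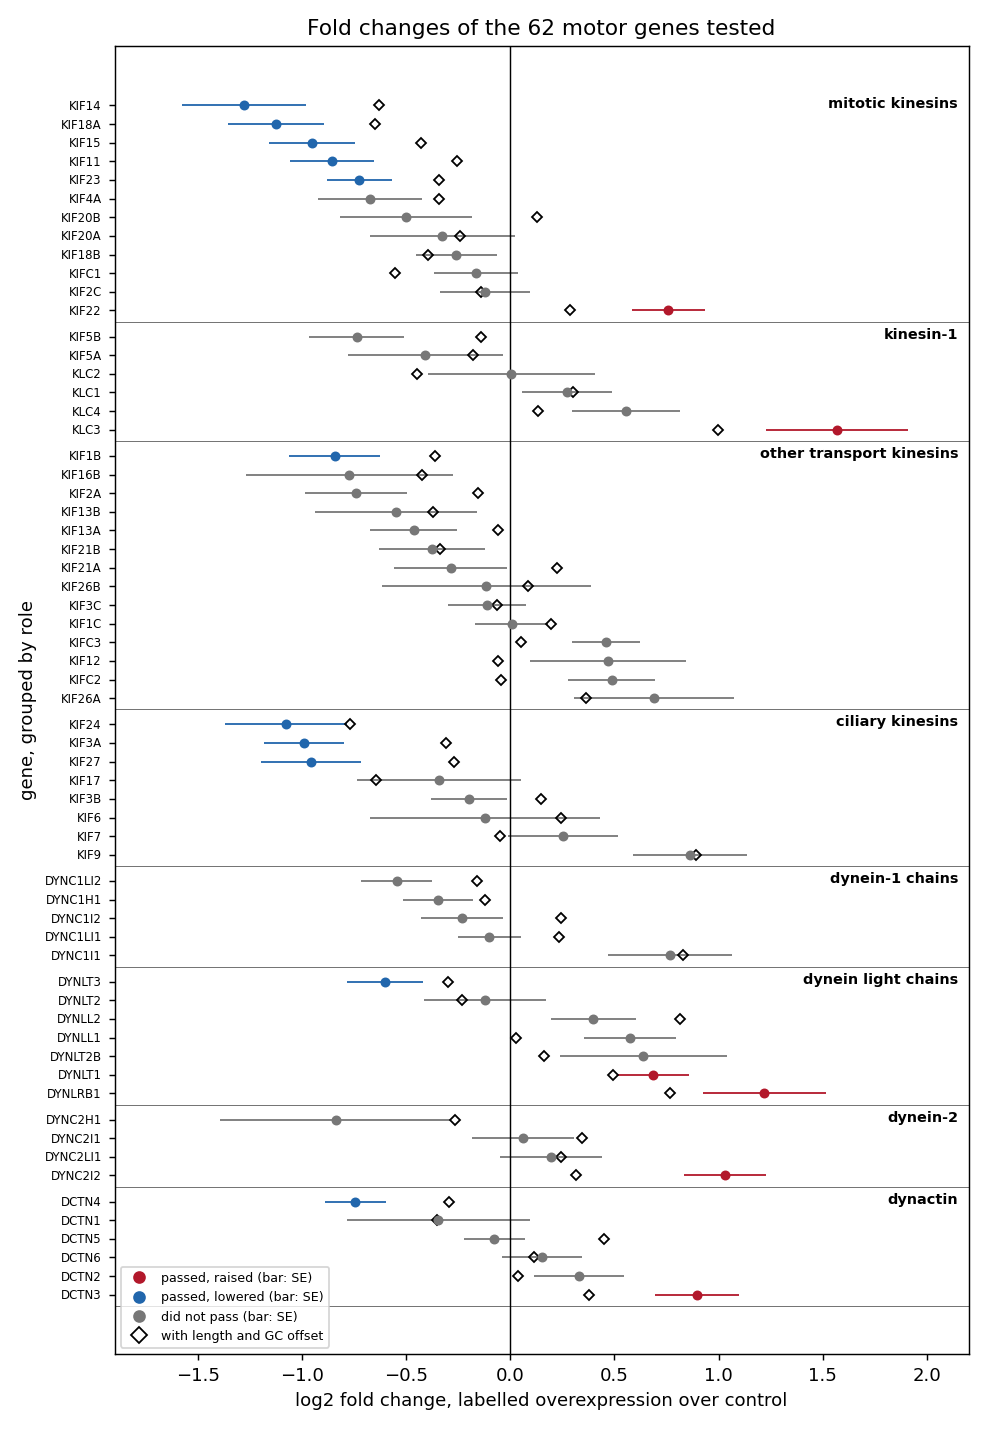
Log2 fold change of the libraries labelled overexpression over controls for the 62 motor genes tested, grouped by role. Bars are standard errors, and open diamonds are the fit with the length and GC offset. Of the 11 genes that fell 8 are mitotic or ciliary kinesins. In the light chains 5 of 7 points lie right of 0, as for 7782 of all 15046 genes. The diamond lies closer to 0 than the point for 44 of the 62, and for 10359 of all 15046 genes.

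Kinesin-1, the main motor of organelle transport, is a pair of heavy chains with a pair of light chains that bind cargo. Of its 6 tested genes 1 rose and 0 fell by edgeR, with 1 lower at an unadjusted p under 0.05 and 1 lowered by DESeq2, KIF5B in both. The median log2 fold change was 0.14, with the length and GC offset -0.003, and -0.25 when FPKM were rescaled to a common sum, over the 4 genes that passed the FPKM filter of that fit. The rescaling moved the median of all genes to -0.35. KLC3 (chr19:45333434-45351520, plus strand), a light chain best known from the sperm tail, rose most of all motor genes, from 1.98, 1.05 and 1.70 CPM to 4.14, 6.04 and 3.89 CPM. The levels are low, with a mean of 1.71 FPKM, but the groups are well apart (log2 fold change 1.57 ± 0.34, edgeR adjusted p = 0.0187). KLC3 also overlaps ERCC2 on the opposite strand, which averaged 44.7 CPM against 3.13 CPM for KLC3, and whether the counting used strand is not given in the sources used here. KIF5B, the ubiquitous heavy chain and the most abundant gene of kinesin-1 at 42.3 FPKM, had 309, 321 and 287 CPM in controls and 224, 119 and 207 CPM in the libraries labelled overexpression. All 3 of the latter were lower, yet library 2 lay far below the other two and the difference did not pass (log2 fold change -0.74 ± 0.23, edgeR adjusted p = 0.0524); it did without library 1 or without library 2 of that label. KLC3 was not called without control 3. KLC4, a light chain of many tissues, had 13.5, 14.8 and 16.8 CPM and 17.1, 30.7 and 18.4 CPM, all higher with a log2 fold change of 0.56 ± 0.26 that did not pass (edgeR adjusted p = 0.158). None of the 9 tested kinesin partners, which link kinesins to lysosomes, mitochondria and signalling scaffolds, passed in edgeR or DESeq2, with 3 lower at an unadjusted p under 0.05; the smallest p-value was that of KIFBP, which keeps kinesins off microtubules (log2 fold change -0.43 ± 0.17, edgeR adjusted p = 0.1).

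Among the 14 other cargo and organelle kinesins, 1 fell and 0 rose by edgeR, with 2 higher at an unadjusted p under 0.05 and 0 raised by DESeq2, and the median log2 fold change was -0.20. KIF1B (chr1:10210570-10381603, plus strand), a kinesin-3 that carries mitochondria and synaptic vesicle precursors, had 83.5, 80.6 and 51.3 CPM in controls and 45.6, 36.5 and 38.0 CPM in the libraries labelled overexpression. Control 3 was the lowest control and still above all of them (log2 fold change -0.84 ± 0.22, edgeR adjusted p = 0.0304); KIF1B did not pass without library 3 labelled overexpression. KIF2A, a kinesin-13 that shortens microtubules, had 119, 124 and 96.2 CPM and 85.2, 43.8 and 73.9 CPM, with no overlap and a log2 fold change of -0.74 ± 0.25 that missed the threshold (edgeR adjusted p = 0.0637), though it passed by DESeq2 and without library 1 or library 2 of that label. KIFC3, a minus-end-directed kinesin found at epithelial junctions and the most abundant gene of the class at 34.6 FPKM, had 87.2, 112 and 97.8 CPM and 131, 152 and 124 CPM. Here the libraries labelled overexpression were all higher, by 0.46 ± 0.16 on the log2 scale (edgeR adjusted p = 0.0771). The 11 further genes of the class ranged from -0.77 for KIF16B to 0.69 for KIF26A.

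The 8 ciliary kinesins held 3 genes that fell and 0 that rose by edgeR, where 9.49% of all genes fell and 9.62% rose. In this class 1 gene, KIF9, was higher at an unadjusted p under 0.05 and raised by DESeq2. The median log2 fold change of the class was -0.27, and -0.16 with the length and GC offset. Its median length was 6.21 kb, and all genes over 4 kb had a median log2 fold change of -0.38. KIF3A (chr5:132692628-132737638, minus strand) and KIF3B are the paired heavy chains of kinesin-2, which carries material towards the ciliary tip. KIF3A had 28.6, 29.7 and 29.6 CPM in controls and 17.2, 12.6 and 14.4 CPM in the libraries labelled overexpression, each far below the lowest control. The controls differed by little more than 1 CPM, and the log2 fold change was -0.99 ± 0.19 (edgeR adjusted p = 0.0144). Its partner KIF3B, the most abundant gene of the class at 9.69 FPKM, had 65.6, 64.0 and 59.4 CPM and 66.0, 44.6 and 54.4 CPM and did not pass (log2 fold change -0.20 ± 0.18, 95% interval -0.61 to 0.22, edgeR adjusted p = 0.468).

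KIF27 (chr9:83834099-83921465, minus strand), a kinesin-4 relative of the Hedgehog regulator KIF7, had 7.88, 10.5 and 10.8 CPM in controls and 4.57, 4.87 and 5.57 CPM in the libraries labelled overexpression. KIF24 (chr9:34252380-34329268, minus strand), which restrains cilium formation at the mother centriole, had 9.99, 18.5 and 12.0 CPM and 7.23, 4.96 and 6.98 CPM. Both are low, near 1.03 and 1.61 FPKM, and both fell, with log2 fold changes of -0.96 ± 0.24 and -1.08 ± 0.29 (edgeR adjusted p = 0.0277 and 0.0352). Neither was called without control 3 or without library 3 labelled overexpression, and KIF27 was not called without library 1 of that label either. KIF24 overlaps UBAP1 on the opposite strand, at 49.6 CPM against 9.93 CPM for KIF24.

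The 5 heavy, intermediate and light intermediate chains of cytoplasmic dynein-1 held no called gene by edgeR, with 1 higher and 1 lower at an unadjusted p under 0.05 and 1 lowered by DESeq2. The median log2 fold change was -0.23, and 0.24 with the length and GC offset. DYNC1H1, the heavy chain that holds the motor domain and at 19.9 kb the longest motor gene, had 377, 435 and 301 CPM in controls and 282, 316 and 276 CPM in the libraries labelled overexpression. The groups overlapped, and the 95% interval of the log2 fold change ran from -0.73 to 0.03 (edgeR adjusted p = 0.173). DYNC1LI2, a light intermediate chain to which adaptors bind and the most abundant of the class at 45.4 FPKM, had 249.9, 226 and 215 CPM and 163, 128 and 183 CPM; these do not overlap, and the log2 fold change was -0.54 ± 0.17 (edgeR adjusted p = 0.0535), past the threshold by DESeq2 and, among the fits that left out 1 library, only without library 2 labelled overexpression. DYNC1I1, the intermediate chain enriched in brain, was low at 1.39 FPKM and had 2.5, 4.03 and 2.75 CPM in controls and 5.25, 6.32 and 4.21 CPM otherwise, higher without passing (0.77 ± 0.30 log2, edgeR adjusted p = 0.1).

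Among the dynein light chains, 2 of 7 tested genes rose and 1 fell, beside 9.62% and 9.49% of all genes, with a median log2 fold change of 0.58. They are also the shortest class, with a median length of 0.73 kb, and the offset brought the median to 0.16. DYNLRB1 (chr20:34516414-34540958, plus strand), the roadblock light chain, had 9.09, 7.54 and 10.7 CPM in the controls and 28.7, 21.4 and 13.6 CPM in the libraries labelled overexpression. All 3 were above the controls, library 1 most and library 3 least (log2 fold change 1.22 ± 0.29, edgeR adjusted p = 0.025); DYNLRB1 overlaps ITCH on its own strand, and it was not called without control 3. DYNLT1 (chr6:158636474-158644743, minus strand), a Tctex-type light chain, had 164, 131 and 168 CPM and 229, 289 and 228 CPM (log2 fold change 0.69 ± 0.17, edgeR adjusted p = 0.0269). Its paralogue DYNLT3 (chrX:37836757-37847571, minus strand), which binds the checkpoint protein BUB3, fell instead, from 105, 82.6 and 103 CPM to 52.3, 68.9 and 70.0 CPM (log2 fold change -0.60 ± 0.18, edgeR adjusted p = 0.0477). DYNLT3 was not called without control 3, nor without library 1 or library 3 labelled overexpression, and DYNLT1 was not without control 3 or that library 3. DYNLL1, the LC8 light chain and hub protein, was the most abundant motor gene at 905 FPKM and made up 31.9% to 47.9% of the summed motor gene FPKM of a library. It had 361, 456 and 642 CPM in controls and 631, 843 and 701 CPM otherwise, with control 3 inside the range of the other group, and did not pass (log2 fold change 0.58 ± 0.22, edgeR adjusted p = 0.0953), except without control 3. The annotation holds 7 DYNLL1 and 2 DYNLT3 pseudogenes that could share reads with them.

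Of the 4 genes of dynein-2, which returns material from the ciliary tip, 1 rose and 0 fell by edgeR or DESeq2, with 0 lower at an unadjusted p under 0.05; the median log2 fold change was 0.13, and -0.21 with rescaled FPKM over the 3 genes left there. DYNC2I2 (chr9:128633653-128656847, minus strand), an intermediate chain also called WDR34, rose from 38.5, 47.0 and 55.7 CPM to 99.0, 109 and 79.8 CPM. The groups stayed apart (log2 fold change 1.03 ± 0.20, edgeR adjusted p = 0.0144), and DYNC2I2 has the highest GC content of the genes that rose, 64.6%. It overlaps SPTAN1 on the opposite strand, at 334 CPM against 71.5 CPM for DYNC2I2. The heavy chain DYNC2H1 was low, with 5.08, 7.76 and 4.12 CPM in controls and 5.75, 0.889 and 2.95 CPM in the other group, which differed widely among themselves (log2 fold change -0.84 ± 0.56, edgeR adjusted p = 0.31). DYNC2LI1, its light intermediate chain, had 7.36, 6.93 and 5.73 CPM and 8.72, 6.08 and 8.15 CPM, with overlap (log2 fold change 0.20 ± 0.25, edgeR adjusted p = 0.601).

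Dynactin, the cofactor that ties dynein to its cargo, had 1 of its 6 tested DCTN genes raised and 1 lowered, with a median log2 fold change of 0.04, and -0.36 with rescaled FPKM. DCTN3 (chr9:34613545-34620523, minus strand), the p24 subunit of the shoulder, had 21.7, 20.6 and 23.1 CPM in controls and 34.1, 50.5 and 37.0 CPM in the libraries labelled overexpression (log2 fold change 0.89 ± 0.20, edgeR adjusted p = 0.0207). DCTN4 (chr5:150708440-150759095, minus strand), the p62 subunit at the pointed end, fell, from 79.2, 83.1 and 76.3 CPM to 48.3, 46.0 and 48.2 CPM (log2 fold change -0.74 ± 0.15, edgeR adjusted p = 0.0148). These subunits of the same complex thus went opposite ways, with a narrow spread within both groups for DCTN4. DCTN3 was not called without control 3. DCTN3 is 0.828 kb long with 51.3% GC, and DCTN4 is 4.12 kb long with 41.8% GC. With the length and GC offset their log2 fold changes were 0.38 and -0.29, and neither passed (edgeR adjusted p = 0.238 and 0.278). DCTN2, or dynamitin, the most abundant at 81.1 FPKM, had 158, 145 and 126 CPM and 141, 241 and 159 CPM, overlapping, and did not pass (log2 fold change 0.33 ± 0.22, edgeR adjusted p = 0.303).

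The dynactin filament and its caps had 1 of 6 tested genes raised and 1 lowered, beside 9.62% and 9.49% of all genes, and a median of 0.16, or -0.29 with rescaled FPKM. DESeq2 raised 1 and lowered 2 of them, and 2 were higher and 2 lower at an unadjusted p under 0.05 in edgeR. ACTR1B, an actin-related protein of the filament, had 17.4, 19.1 and 21.4 CPM in controls and 28.9, 29.1 and 29 CPM in the libraries labelled overexpression (log2 fold change 0.58 ± 0.18, edgeR adjusted p = 0.0481). CAPZA2, a subunit of the capping protein, had 181, 203 and 189.9 CPM and 135, 124 and 138 CPM (log2 fold change -0.53 ± 0.14, edgeR adjusted p = 0.0321). Among 20 tested dynein regulators and activating adaptors 2 rose and 3 fell, beside 9.62% and 9.49% of all genes, with a median log2 fold change of -0.44 and -0.31 with the offset. NUDC, a chaperone that stabilises the dynein regulator LIS1, rose from 313, 379 and 339.8 CPM to 555, 604 and 507 CPM (log2 fold change 0.69 ± 0.15, edgeR adjusted p = 0.0177), and RILP, the Rab7 effector on lysosomes, rose too. SPDL1, the adaptor that brings dynein to kinetochores, fell from 151, 153 and 147 CPM to 87.2, 70.7 and 106 CPM (log2 fold change -0.77 ± 0.18, edgeR adjusted p = 0.0212), and so did NIN, an adaptor at centrosomes, and TRAK2, the mitochondrial adaptor shared with kinesin-1.

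The direction of the motor genes followed gene length and GC content, as it did over all genes. Across the 62 tested genes, which share the same 6 libraries, Spearman's rho of the log2 fold change was -0.54 with length and 0.58 with GC content, beside -0.54 and 0.55 across 14932 genes of known sequence. Genes that rose were 0.662 to 2.08 kb long and genes that fell 2.152 to 10.9 kb, so the lengths did not overlap. Among the 6 tested motor genes under 1 kb 3 rose and 0 fell, with a median log2 fold change of 0.66 beside 0.60 for all genes of that length. From 1 to 4 kb 3 rose and 3 fell among 22, with medians of 0.17 and 0.19. Over 4 kb 0 rose and 8 fell among 34, with medians of -0.44 and -0.38. Within each class of length the motor genes thus lay close to all genes, and with the offset rho was -0.22 and 0.15, beside -0.07 and 0.03 across all genes.

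**Figure D3:**
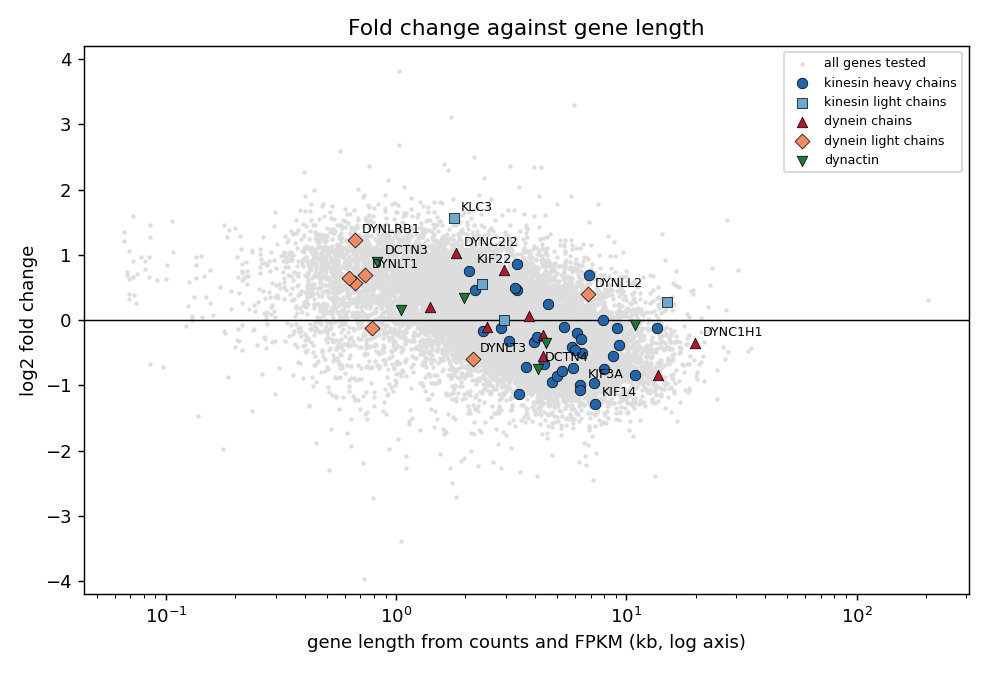
Log2 fold change against gene length in kb (log axis), with all genes tested as grey points and the 62 motor genes in colour. Both clouds slope down with length, and the 6 motor genes that rose are all at or below 2.08 kb while the 11 that fell start at 2.152 kb.

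Partners within a complex or paralogues were set side by side as FPKM ratios, for 8 pairs chosen after their values were seen, so they are given without a test. KIF3A over KIF3B was 0.422, 0.450 and 0.484 in the controls and 0.252, 0.275 and 0.257 in the libraries labelled overexpression. The genes differ little in length, 6.31 and 6.12 kb, but KIF3A has 37.8% GC and KIF3B 47.6%. DYNLT1 over DYNLT3 was 4.61, 4.67 and 4.83 in controls and 12.9, 12.3 and 9.62 otherwise. DCTN3 over DCTN4 was 1.36, 1.23 and 1.5 and 3.50, 5.46 and 3.82. KIF22 over KIF11 was 1.06, 1.03 and 1.55 and 2.77, 5.77 and 3.08, library 2 labelled overexpression being the highest. In these 4 pairs the groups did not overlap, and the gene with the higher GC content gained on the other. KLC4 over KIF5B did the same, at 0.108, 0.114 and 0.145 in controls and 0.190, 0.642 and 0.220 otherwise. DYNC1LI1 over DYNC1LI2, at 0.543, 0.599 and 0.572 and 0.697, 1.04 and 0.658, did not overlap either, but there the gene with the lower GC content gained (38.4% against 43.6%). The groups overlapped for DYNLL1 over DYNLL2, at 47.3, 60.7 and 71.4 and 68.9, 61.0 and 79.3, and for KLC2 over KIF5B, at 0.270, 0.193 and 0.302 and 0.168, 1.13 and 0.294.

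**Figure D4:**
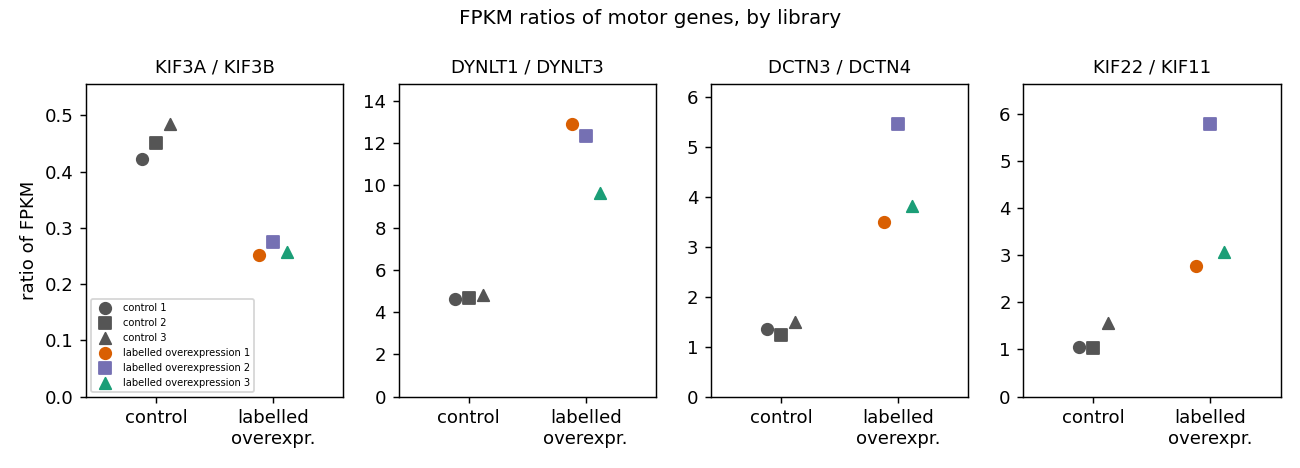
Ratio of FPKM of 4 pairs of motor genes in each library, controls left and libraries labelled overexpression right, on axes that start at 0. KIF3A over KIF3B is at 0.422 to 0.484 in controls and at 0.252 to 0.275 in the other group, and the other 3 ratios are higher in the libraries labelled overexpression.

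Libraries 1 and 2 labelled overexpression differed from each other in some motor genes. In 11 tested motor genes (17.7%, beside 13.7% of all genes) they lay on opposite sides of the control range. DCTN1, or p150Glued, the dynactin subunit that binds microtubules and dynein, was the clearest, with 132, 142 and 129 CPM in controls and 46.5, 198 and 72.5 CPM in the libraries labelled overexpression. Its group difference was small beside that spread (log2 fold change -0.35 ± 0.44, 95% interval -1.34 to 0.65, edgeR adjusted p = 0.606). KLC2, a kinesin-1 light chain, had 42.0, 31.2 and 43.6 CPM and 18.9, 67.4 and 30.7 CPM, and KIF20A, which brings Aurora B to the central spindle, had 79.0, 66.9 and 89.9 CPM and 30.5, 96.1 and 61.2 CPM. In all 3 of these genes library 1 was the lowest and library 2 the highest of the 6. KIF21A, KIF3B and DCTN6 were among those that went the other way, with library 2 lowest. KIF21A, a kinesin-4 that slows microtubule growth, had 120.0, 139 and 116 CPM in controls and 142, 61.7 and 104 CPM otherwise. In KIF3B library 1 lay only just above the highest control, at 66.0 against 65.6 CPM. Library 1 is the one whose NFE2L1 count lay inside the control range and library 2 the one with the highest; the part of that in this split was not tested. DCTN1, KLC2, KIF20A, KIF21A and DCTN6 were chosen after their values were seen. In an alternative also added after seeing the data, the length and GC offset without library 2 labelled overexpression, edgeR called 5 motor genes, KIF9 as higher and DCTN1, KIF4A, KIFC1 and KLC2 as lower, and 6.86% of all genes.

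**Figure D5:**
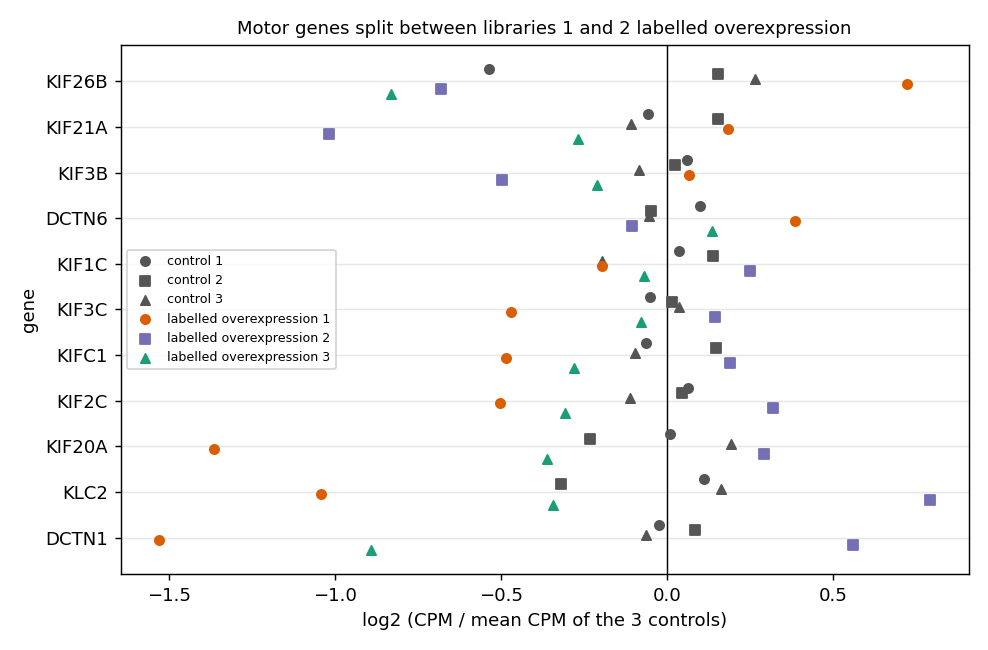
The 11 motor genes in which libraries 1 and 2 labelled overexpression lay on opposite sides of the control range, with each library's log2 ratio of CPM to the mean of the controls on the x axis. For DCTN1, KLC2 and KIF20A library 1 lies furthest left and library 2 furthest right, and for KIF21A the order is the reverse.

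By level per length, a pair of light chains, dynamitin and KIF2C led. Averaged over the 6 libraries, DYNLL1 stood at 905 FPKM, DYNLT1 at 273, DCTN2 at 81.1 and KIF2C at 62.3 FPKM. Of the 63 motor genes 53 averaged at least 1 FPKM and 30 at least 10, and 10 stayed under 1 FPKM. Summed over its 12 genes, the mitotic class had 307 to 329 FPKM in controls and 209 to 267 FPKM in the libraries labelled overexpression, so the groups did not overlap. Kinesin-1 summed to 76.0 to 77.6 FPKM in controls and 53.2 to 56.0 FPKM otherwise, and the dynein-1 chains to 127 to 147 FPKM and 90.5 to 109 FPKM. Dynein-2 went the other way, at 30.2 to 39.4 FPKM and 51.4 to 61.4 FPKM. These sums are led by the most abundant gene of each class, KIF5B for kinesin-1 and DYNC2I2 for dynein-2. Summed over all genes, FPKM ran from 484861 to 519524 in controls and from 605615 to 626091 in the libraries labelled overexpression. The class sums were not brought to a common total.

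The authors' deposited table of fold changes gave 7 motor genes raised and 15 lowered at its adjusted p under 0.05, among them all 17 called here. DESeq2 on the deposited counts gave 7 and 15 as well, of 61 motor genes with an adjusted p, and called 27.3% of all genes. The deposited log2 fold changes of KIF3A, DCTN4 and KLC3, at -1.027, -0.779 and 1.538, equalled those of DESeq2 to these digits. The matching counts are thus not to be read as coming from separate analyses.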

How the data were processed

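The 6 HK-2 libraries were made with a kit for stranded mRNA, per the labels' protocols. Reads were trimmed with Trimmomatic 0.36 and the build is GRCh38, per the submitters' processing notes; what aligned and counted the reads, with which annotation and whether by strand, is not given in the sources used here. Counts as the authors deposited them are raw, whole numbers with different totals, and the deposited FPKM values are these counts over a fixed gene length and the library total. The authors' deposited log2 fold changes and p-values have no stated test and are used only where their table is named.

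Gene length was taken from the ratio of count to FPKM, GC content from the longest GENCODE transcript, and promoters from RefSeq. Counts were fitted with edgeR 4.0.16 in R 4.3.3 on the group alone, with filterByExpr, TMM scaling, glmQLFit, glmQLFTest and Benjamini-Hochberg adjustment over 15046 genes, called at an adjusted p under 0.05. Standard errors came from the size of the log2 fold change over the root of the F statistic; the prior count was 2. For the offset, mgcv 1.9.3 fitted a smooth over length and GC content to the deviation of every library. DESeq2 1.42.0, limma 3.58.1 on log2 FPKM, other filters and scalings, a replicate block, and fits that left out 1 library were the alternatives. The fit was checked on simulated data. These were drawn independently for each library, with no trend over length or GC content. The check thus cannot speak to how the calls depend on that trend.

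The motor genes, role classes and pathway lists were chosen with earlier results of these data known. Named in each class were the 3 tested genes with the smallest p-values and the gene of highest mean FPKM, and in each pathway list the 2 genes with the smallest p-values, of which 1 is not reported here; genes called beyond these, and those in counts of 5 or fewer, were named after their values were seen. Role classes and lists are described by counts and medians, with no test. Library totals were 16865460 to 23458333 counts, and the relative counting error is largest for genes with few counts.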

Additional observations from a re-analysis of the deposited data

How the results depend on the processing

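The number of motor genes raised was 6 and the number lowered 11. Neither moved by more than 1.5 times without the filter, with the FPKM filter, with DESeq2's size factors or Wald test, or with limma on log2(FPKM + 1) or log2(FPKM + 0.1). After rescaling FPKM to a common sum, which moved the median log2 fold change of all genes to -0.35 (-0.12 with limma on log2(FPKM + 0.1)), limma gave 2 raised and 25 lowered of 53. The length offset gave 2 raised and 3 lowered, and the length and GC offset gave 0 and 0. Leaving out 1 library at a time gave 0 to 7 raised and 0 to 16 lowered; the low end came from leaving out control 1 or control 2, and the high end from leaving out library 2 labelled overexpression. The NFE2L1 log2 fold change ran from 0.25, without library 2 of that label, to 1.14, without library 1, over these fits. With the replicate block, edgeR gave 0 raised and 0 lowered, with 25 motor genes at an unadjusted p under 0.05, beside 4413 of all genes tested. With the block and the length and GC offset it again gave 0 and 0, with 11 such motor genes, beside 2282 of all genes tested. The labels give no shared culture or day for a number, and same-numbered libraries deviated from their group means with correlations of 0.006, -0.512 and 0.088, so the block was not taken as a pairing. No fold change of a called motor gene reversed under any of these 17 alternatives. These genes were picked as called, with groups that do not overlap, so a reversal was hardly possible.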

Other observations

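Of 24 tested tubulins and microtubule-associated proteins, which form the tracks of the motors, 4 rose and 3 fell, where 9.62% of all genes rose and 9.49% fell, with a median log2 fold change of 0.22 and, with the offset for length and base composition, -0.05; with FPKM rescaled to a common sum it was -0.13 over 22 of them. The 4 that rose were tubulins: TUBA1B, TUBA1C, TUBB4A and TUBB4B. TUBB4B had 676, 786 and 745 CPM in controls and 1082, 1309 and 1181 CPM in the libraries labelled overexpression (log2 fold change 0.70 ± 0.14, edgeR adjusted p = 0.0156). The 3 that fell bind microtubule plus ends: CKAP5, a microtubule polymerase, and CLASP2 and CLIP1. CKAP5 had 152, 161 and 117 CPM in controls and 59.2, 60.8 and 69.4 CPM otherwise (log2 fold change -1.18 ± 0.17, edgeR adjusted p = 0.0105). With the offset 0 of the 24 passed, beside 0.691% of all genes. At an unadjusted p under 0.05 there were 7 of the 24, beside 2945 of all 15046 genes.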
